A study of Saccharomyces cerevisiae with 8 samples.

Results

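The genes described here encode the cytosolic ribosomal proteins of budding yeast. They were chosen from the annotation of the sacCer3 build by symbol, as every protein-coding gene named RPL or RPS followed by a digit, for the large and the small subunit. The rule found 132 of 6002 nuclear protein-coding genes, 76 for the large subunit and 56 for the small one, and used no measured value. A gene was counted as having a start peak when a deposited same-strand peak reached into the 300 bp before or the first 100 bp after its annotated 5′ end, which for these genes is the start codon.

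CAGE, a method that captures the capped 5′ ends of RNA and sequences them, was applied to BY4741, a common laboratory strain, in 8 libraries. Each strain carried synHPRT1, a synthetic copy of a human locus, or synHPRT1R, the same sequence in reversed order. It lay either on a yeast artificial chromosome (YAC), in cells grown in SC-Leu, or integrated in the genome, in cells grown in YPD. The 4 combinations had 2 libraries each. SC-Leu is a defined medium without leucine and YPD a rich medium, so that the place of the synthetic DNA and the medium cannot be told apart. Overnight cultures at 30 °C were brought to OD 0.1 and harvested after 6 h, near OD 0.6. The labels do not give the number of clones or say that replicates came from separate cultures. The p-values here therefore reflect the spread among these libraries, and that spread may be technical.

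A library held 2995 to 3367 peaks on native chromosomes, and 2393 to 2665 genes had a start peak. No read totals were at hand, so depth cannot be stated as a count. The weakest peak of a list had a deposited fold over background of 1.21 to 1.41. A gene without a listed start peak is therefore one whose signal was not called at this depth, and not one shown to lack capped RNA.

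Ribosomal proteins are made in near-equal numbers to fill both subunits, and in growing yeast their genes are among the most heavily transcribed by RNA polymerase II. They are switched together by Rap1, Fhl1, Ifh1 and Sfp1 in response to nutrients. Most yeast genes have no intron, whereas many ribosomal protein genes have one close behind the start codon, and many exist as pairs of copies, named A and B, left from a duplication of the whole genome.

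The annotation of the 132 genes showed those features. An intron was annotated in 88 of them (66.7%), 52 for the large and 36 for the small subunit, against 3.12% of other genes, and ribosomal protein genes made up 32.5% of the 271 genes with an intron. The first exon had a median length of 15 bp and ranged from 1 to 309 bp, and the first intron had a median of 408.5 bp (147 to 561 bp). In 65 of the 88 genes the first intron began with the letters GTATGT, the usual yeast 5′ splice site, and in 82 the branch site letters TACTAAC lay in its last 150 bases. There were 57 A and B pairs, of which 41 had an intron in both copies, 15 in neither and 1, RPS22, in the B copy alone. Their coding sequences were 79.9% to 99.4% identical, with a median of 93.2%. No start window had 50% or more of its 31-base words repeated elsewhere in the genome, and the highest share was 18.1%.

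Ribosomal protein genes fell into groups of very different behaviour. Of the 132 genes, 39 (29.5%) had a start peak in all 8 libraries, against 20.6% of all genes. In 59 (44.7%) none was listed in any library, against 33.8% of all genes. The remaining 34 had one in 1 to 7 libraries, so that 73 (55.3%) had one in at least 1 library, against 66.2% of all genes.

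The number with a start peak was 47 and 44 in the libraries of synHPRT1 on the YAC, 48 and 50 in those of integrated synHPRT1, 49 and 48 in those of synHPRT1R on the YAC, and 50 and 53 in those of integrated synHPRT1R. This was 36.8% ± 1.98 of ribosomal protein genes (SD, n = 8) against 41.1% ± 1.57 of the other genes. The difference of -4.28 ± 1.46 percentage points was negative in 8 of 8 libraries and passed an exact two-sided sign-flip test over libraries (p = 0.00781, the smallest p that 8 libraries allow). Libraries share 1 genome, so this test speaks of recurrence over libraries and not of other genes.

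The split followed the intron. Among the 44 genes without one, 90.3% ± 2.91 had a start peak (SD, n = 8), which was 37 to 41 genes in a library. Among the 88 with one it was 10.1% ± 2.39, or 7 to 13 genes. The difference was -80.3 ± 3.49 percentage points, and each of the 8 libraries showed the lower share with an intron (exact sign-flip p = 0.00781).

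**Figure D1:**
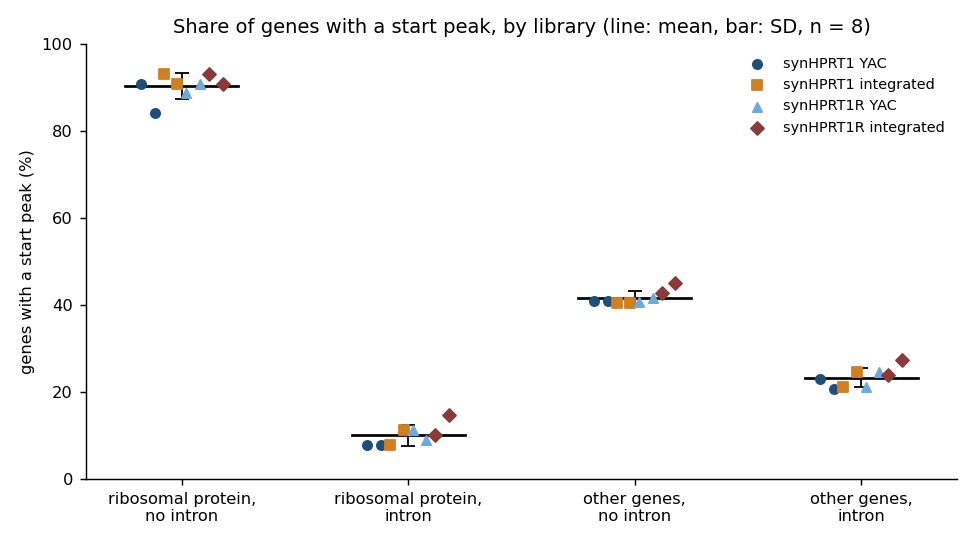
Percent of genes with a start peak in each of the 8 libraries (points, coloured by group) for ribosomal protein genes and for other genes, without and with an annotated intron; lines are means and bars SD. The ribosomal protein genes stand at 90.3% without and 10.1% with an intron, the other genes at 41.7% and 23.4%.

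Other genes showed the same direction with a smaller gap. A start peak was listed for 41.7% ± 1.56 of the 5687 other genes without an intron and for 23.4% ± 2.22 of the 183 with one (SD, n = 8), a difference of -18.3 ± 1.40 percentage points (exact sign-flip p = 0.00781). The gap of ribosomal protein genes exceeded it by -61.9 ± 3.91 percentage points, in 8 of 8 libraries, and this difference of differences passed the same exact test (p = 0.00781). More of it lay in genes without an intron, 90.3% against 41.7% of other genes, than in those with one, 10.1% against 23.4%. Within subunits, a start peak was listed for 91.7% of large-subunit genes without an intron and 12.3% of those with one, and for 88.8% and 6.94% of small-subunit genes.

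Counting genes over libraries gave the same picture for a start peak in all 8, and less so for its absence. A start peak in all 8 libraries was found for 37 of 44 ribosomal protein genes without an intron, against 21.3% of all genes without one. It was found for 2 of 88 with an intron, against 7.75% of all genes with one. In 57 of 88 (64.8%) none was listed in any library, near the 59.4% of all genes with an intron, which include these 88. Both exceptions were RPL17A and RPL17B, whose first exon of 309 bp is the longest of the set, so that the whole start window lies before the intron. RPL17 encodes a protein near the exit of the peptide tunnel.

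**Figure D2:**
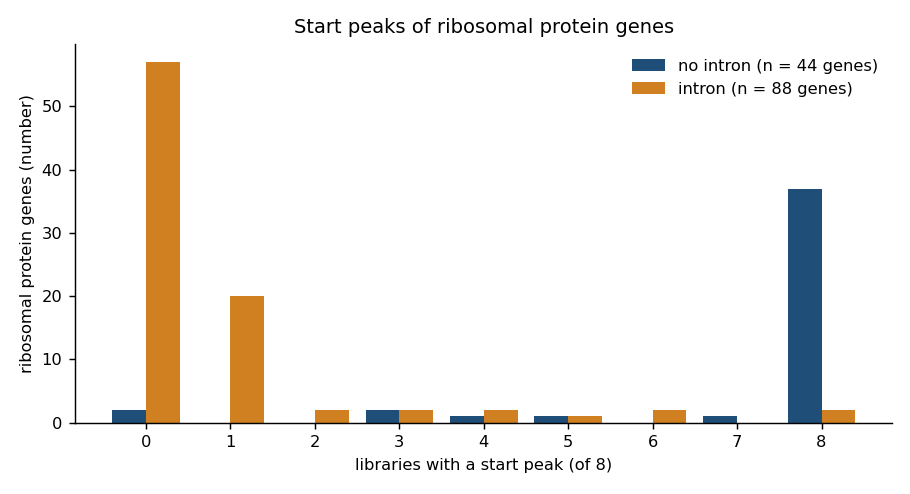
Number of ribosomal protein genes by the number of libraries, of 8, in which a start peak was listed, for genes with and without an annotated intron. Genes without an intron gather at 8 libraries (37 genes) and genes with one at 0 (57 genes) and 1 (20 genes).

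Among intron-containing ribosomal protein genes, those with a start peak in all libraries had the longest first exons. None of the 79 genes with a first exon of at most 100 bp had a start peak in all 8 libraries, nor did any of the 7 with more than 100 and up to 200 bp. No start peak was listed in any library for 26 of 34 genes with a first exon of 1 to 10 bp, 15 of 25 with 11 to 30 bp, 13 of 20 with 31 to 100 bp and 3 of the 7 just named. Among other genes with an intron it was 16 of 26, 30 of 52, 24 of 53 and 11 of 17 in the same ranges of length, and 1, 3, 9 and 2 of these had a start peak in all libraries. Of the other genes with a first exon longer than 200 bp, 4 of 35 had a start peak in all libraries. With first exons of at most 100 bp alone, the difference from genes without an intron was -83.5 ± 3.81 percentage points (exact sign-flip p = 0.00781).

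The subunits did not differ beyond the spread between libraries. A start peak was listed for 37.3% ± 2.22 of large-subunit and 36.2% ± 3.79 of small-subunit genes (SD, n = 8). The difference was 1.17 ± 4.52 percentage points (exact two-sided sign-flip test, p = 0.516), above 0 in 4 and below 0 in 4 libraries.

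Where a start peak was listed, its level was read as the summit pileup divided by the genome-wide background of its list, a ratio within a library that counts 5′ ends and so does not grow with gene length. For the 37 genes without an intron and with a start peak in all 8 libraries the median level was 195, and it ran from 4.52 for RPL24B to 3325 for RPS26A. The 1200 other genes with a start peak in all libraries had a median of 15.5. For the 29 intron-containing genes listed in 1 to 7 libraries the median was 2.27 (1.34 to 7.68), near the weakest peaks that the lists hold. The deposited fold, ranked within its list among all start peaks, put the median ribosomal protein gene at percentile 94.5 ± 0.530 (SD, n = 8), above 50 in 8 of 8 libraries (exact sign-flip p = 0.00781). That percentile covers only genes with a listed peak and so leaves out most genes with an intron.

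The 3 highest median levels belonged to small-subunit genes. RPS26A, whose product sits where mRNA leaves the ribosome, had levels of 2847 and 2918 in the synHPRT1 YAC libraries, 4057 and 3679 in the integrated synHPRT1 libraries, 4080 and 3432 in the synHPRT1R YAC libraries, and 3178 and 3218 in the integrated synHPRT1R libraries. Both synHPRT1 YAC libraries lay below the other 6, and the highest value was 1.43 times the lowest. The summit of the RPS26A peak lay inside the start window in 3 of the 8 libraries and that of RPS15 in 4. In the other libraries the levels of these genes were read at a summit outside the window, within a peak that overlaps it. RPS15, which encodes a protein of the subunit's head, followed with a median of 2046 (1697 to 2853). RPS31, whose protein is made fused to ubiquitin, had a median of 1284 (1095 to 1395).

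RPS20, for another protein of the head, varied little, with levels of 877 and 943 in the synHPRT1 YAC libraries, 1053 and 1131 in the integrated synHPRT1 libraries, 1134 and 1099 in the synHPRT1R YAC libraries, and 997 and 1113 in the integrated synHPRT1R libraries. RPS12 had a median of 584 (473 to 766), RPS2, at the mRNA entry, of 530 (479 to 683), and RPS3, also at the entry, of 260 (204 to 302). RPS2 and RPS12 overlapped in range, and both stayed below RPS20 in all libraries.

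Over the 37 genes without an intron the highest level was a median of 1.68 times the lowest, against 2.92 times for the other genes with a start peak in all libraries.

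Among large-subunit genes, RPL3, which encodes a protein next to the peptidyl transferase centre, had a median level of 697 (586 to 803). RPL5, whose product carries the smallest ribosomal RNA into the ribosome, had 449 (323 to 721), and RPL10, needed for subunit joining, 195 (161 to 219). RPL32, which encodes another large-subunit protein, was lower, at 27.0 (8.98 to 42.3). RPL29 had levels of 6.54 to 10.1 in the 4 YAC libraries and 12.5 to 23.0 in the 4 integrated ones. Its peak began at a median of 357 bp upstream of the start codon (304 to 357 bp). This was the farthest of the ribosomal protein genes listed in all libraries, whose median was 41 bp among those without an intron. The RPL29 peak thus began before the 300 bp window in every library and reached into it. Whether it marks the start of RPL29 was not tested.

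**Figure D3:**
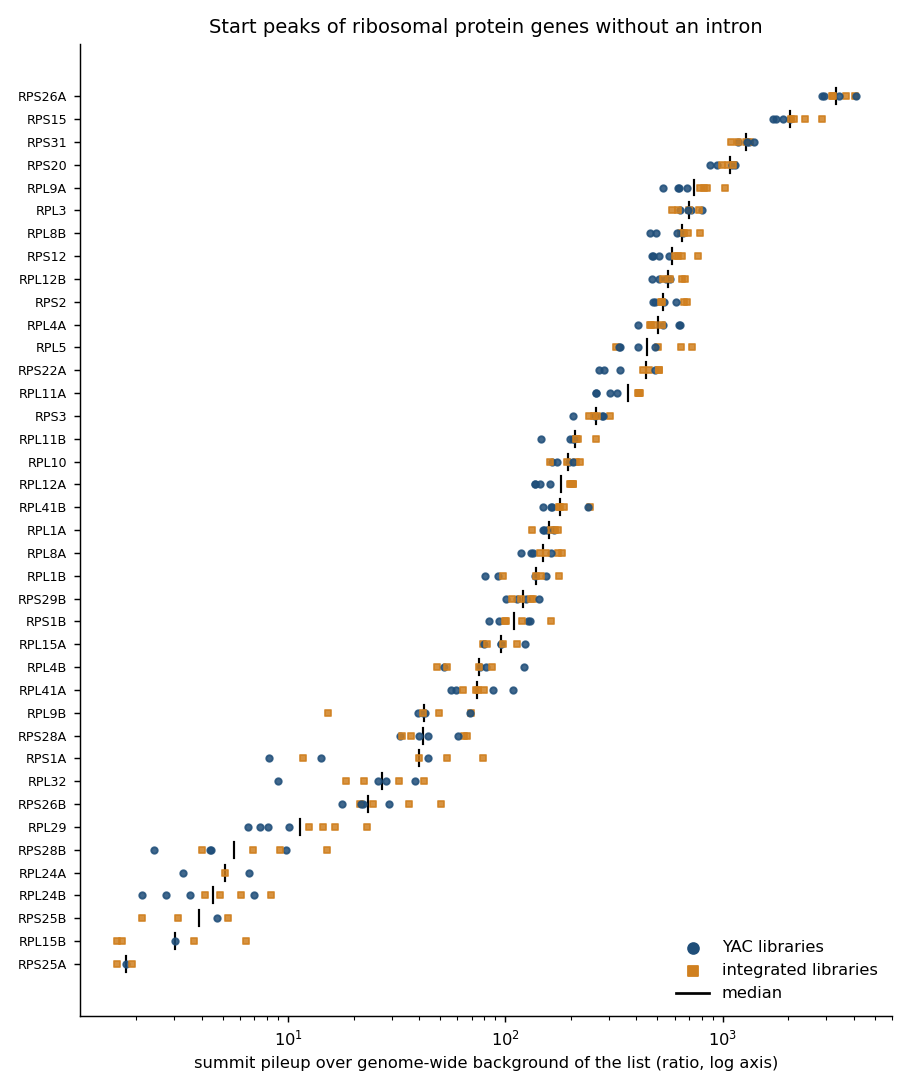
Level of the start peak (summit pileup over the genome-wide background of the list, log axis) in each library for 39 of the 42 ribosomal protein genes without an intron that had one in at least 1 library; a point is a library, coloured by YAC or integrated, and the bar is the median. RPS26A stands highest at 3325 and RPS25A lowest at 1.80.

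Only RPL38 and RPS29A had no intron and no start peak in any library. RPL24A, RPS25A, RPS25B, RPL15B and RPS1A had one in 3, 3, 4, 5 and 7 libraries. Where listed, their levels were low, with medians of 1.80 for RPS25A, 3.91 for RPS25B, 3.02 for RPL15B and 5.14 for RPL24A. RPS1A was higher, at 40.2 (8.21 to 79.2).

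The copies of a pair often differed. In 11 pairs both copies had a start peak in all libraries, 10 of them without introns and the other RPL17. In 20 pairs neither copy had one in any library, and all 20 had introns in both copies. In 10 of the 11 pairs the same copy had the higher level in all 8 libraries, the A copy in 6 and the B copy in 4. Ranks of the summit pileup among genes of the same strand gave the same order in these pairs. Ranks of the deposited fold did not in every pair, with RPL12A and RPL41A above their B copies in 3 libraries each. The copies of RPS26, RPL9 and RPL12 lie on opposite strands, so their ratios rest on different backgrounds. The higher median was 1.15 times (RPL1) to 143 times (RPS26) the lower, with a median of 4.36.

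RPS26B had levels of 17.7 and 22.2 in the synHPRT1 YAC libraries, 35.98 and 21.3 in the integrated synHPRT1 libraries, 29.2 and 21.7 in the synHPRT1R YAC libraries, and 50.5 and 24.5 in the integrated synHPRT1R libraries. All were far below those of RPS26A given above, although the coding sequences are 92.2% identical. RPL17A ranged from 270 to 374 and RPL17B from 2.03 to 18.0. RPL9A, for a protein at the base of the stalk, had a median of 736 against 42.3 for RPL9B, and RPL4A had 504 against 75.8 for RPL4B.

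The B copy was higher for RPL8 (651 against 149) and RPL12 (559 against 180), and also for RPL41, which encodes the smallest of the ribosomal proteins (178 against 73.9). RPL12 encodes a protein of the stalk base. The ranges of RPL12A (137 to 205) and RPL12B (474 to 670) did not overlap. RPL1 was the pair in which the order of the levels changed between libraries, with medians of 158 and 138.

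**Figure D4:**
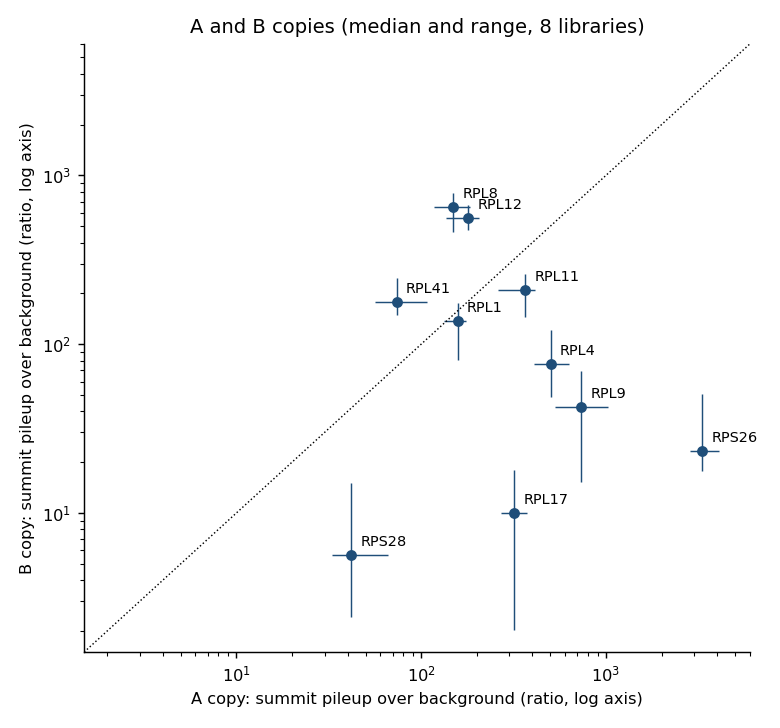
Median level of the start peak of the A copy (horizontal) and the B copy (vertical) over 8 libraries for 10 of the 11 pairs in which both copies had one in all libraries, with bars from the lowest to the highest library, on log axes; the dotted line marks equal levels. RPS26, RPL17 and RPL9 lie farthest below the line and RPL8 and RPL12 above it.

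In 3 pairs the copies differed by a start peak in at least 6 libraries. RPS22A, the copy without an intron, had one in 8, with levels of 271 to 510, and RPS22B, with an intron, in none. RPS29B, for a small zinc-binding protein, had one in 8 libraries, with levels of 100.98 to 142, and RPS29A in none. RPS17B had one in 6 libraries, absent from both synHPRT1 YAC libraries, with levels of 4.63 to 13.7, and RPS17A in none. RPS17A carried a peak on its last exon in all 8 libraries instead, as given further on. Over the 57 pairs, 29.2% ± 2.64 of A copies and 34.2% ± 2.81 of B copies had a start peak (SD, n = 8). The difference was -5.04 ± 3.68 percentage points, negative in 8 of 8 libraries (exact sign-flip p = 0.00781). With a window of 500 bp upstream to 200 bp downstream it was -3.51 percentage points and missed the threshold (exact sign-flip p = 0.0625).

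The intron-containing genes had peaks elsewhere. A peak on the same strand overlapping the first 200 bp of the last exon was listed in at least 1 library for 52 of the 88, in at least 6 libraries for 27 and in all 8 for 20. A library held 27 to 42 such genes, 36.9% ± 5.19 of the 88 (SD, n = 8). Of the 183 other genes with an intron, 70 (38.3%) had such a peak in at least 1 library, 22 (12.02%) in at least 6 and 14 in all 8, and the share per library was 17.5% to 20.8%. A set of 36 genes had a last-exon peak but no start peak in any library, 16 had both, 15 a start peak alone and 21 neither. A peak that overlapped both places was counted in both, as for RPL6B in the integrated synHPRT1R library 2 (level 8.05). Counts of last-exon peaks here and below therefore include some peaks that are also start peaks.

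These peaks began at nearly the same place with respect to the exon. Of 260 such peaks over the 8 libraries, 234 (90.0%) had their 5′ edge 1 to 20 bp before the first base of the last exon, within the end of the intron, at a median of 9 bp. In the intron-containing genes outside the set, 29 of 280 such peaks (10.4%) did. The genes compared are unlike. Of the 70 other genes with a last-exon peak, 59 also had a start peak, against 16 of 52 in the set. Within the set the share was 96.4% with a first exon of at most 10 bp, 81.6% with 11 to 30 bp and 44.4% with more. First exons of at most 10 bp were found in 34 of the 88 genes and in 26 of the 183 other genes. In 15 of the 20 genes with a last-exon peak in all 8 libraries the edge moved by at most 5 bp between libraries, and for RPS14B it was 13 bp before the exon in all 8. A peak edge is a boundary set by the peak caller over at least 200 bp, and not a mapped cap.

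**Figure D5:**
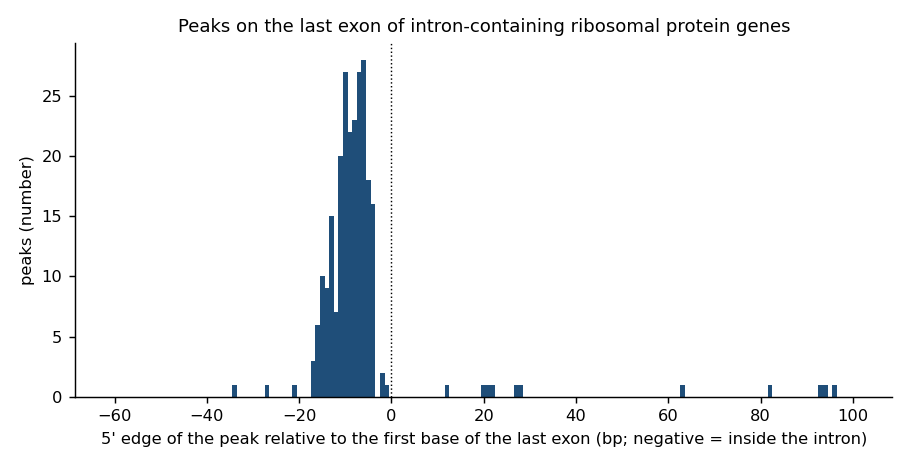
Distance in bp from the first base of the last exon to the 5′ edge of the peak (negative values lie in the intron) for peaks overlapping the first 200 bp of the last exon in intron-containing ribosomal protein genes; 248 of 260 peaks lie within the plotted range of -60 to 100 bp. The peaks gather just before the exon, with a median of 9 bp among the 234 that begin 1 to 20 bp before it.

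The sequences at both ends of the intron show what these genes share and where the peaks began. The genes were those of RPL35, RPL13 and RPL19, for proteins of the large subunit, and RPS14, for a protein of the small subunit's platform that in yeast also binds the RPS14B transcript and limits its splicing. RPL28, the target of cycloheximide resistance mutations, is shown as a gene with a longer first exon, no start peak and a last-exon peak in 1 library. In the first group of lines, from sacCer3, each line gives the first exon and 12 bases of the intron, with the first 6 bases of the intron in capitals. The positions are chrIV:117664-117678 (plus strand) for RPL35A, chrIV:308424-308439 (plus) for RPL13A, chrII:168423-168436 (plus) for RPL19B, chrIII:178202-178220 (minus) for RPS14A, chrX:73787-73808 (plus) for RPS14B and chrVII:310967-311027 (plus) for RPL28.
RPL35A: atgGTATGTttgaga
RPL13A: atggGTATGTctacta
RPL19B: atGTATGTttaaca
RPS14A: atgtctaGTATGTttaatc
RPS14B: atggctaacgGTACGTgaaagg
RPL28: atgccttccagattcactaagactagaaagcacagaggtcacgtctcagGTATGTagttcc

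The first exons ended within or just behind the start codon in RPL35A, RPL13A and RPL19B, with 3, 4 and 2 bp, and after 7 and 10 bp in RPS14A and RPS14B, against 49 bp in RPL28. The other end of the intron is given next as its last 40 bases and the first 20 of the last exon, with the intron bases between the median 5′ edge of the peak and the exon in capitals. The positions are chrIV:118118-118177 (plus) for RPL35A, chrIV:308753-308812 (plus) for RPL13A, chrII:168769-168828 (plus) for RPL19B, chrIII:177887-177946 (minus) for RPS14A and chrX:74165-74224 (plus) for RPS14B.
RPL35A: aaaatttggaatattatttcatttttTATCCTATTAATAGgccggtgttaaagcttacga
RPL13A: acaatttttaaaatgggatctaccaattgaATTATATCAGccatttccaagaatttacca
RPL19B: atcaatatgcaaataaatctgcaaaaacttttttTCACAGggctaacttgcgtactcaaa
RPS14A: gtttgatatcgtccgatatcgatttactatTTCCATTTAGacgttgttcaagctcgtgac
RPS14B: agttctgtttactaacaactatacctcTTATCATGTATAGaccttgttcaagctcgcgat

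The capitals cover 6 to 14 intron bases in these 5 genes and end with the AG of the 3′ splice site. In RPS14B the branch site letters tactaac stand shortly before them.

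The level of these last-exon peaks was highest for RPL35A, whose first exon is the start codon alone. Its levels were 150 and 169 in the synHPRT1 YAC libraries, 172 and 203 in the integrated synHPRT1 libraries, 174 and 148 in the synHPRT1R YAC libraries, and 130 and 122 in the integrated synHPRT1R libraries. The integrated synHPRT1R libraries were the lowest and the integrated synHPRT1 libraries held the highest. RPL20A followed with a median of 108 (77.2 to 141) and RPL43A with 83.9 (42.5 to 122), and RPL19B had 51.7 (36.8 to 84.8).

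RPS17A had levels of 44.7 and 33.2 in the synHPRT1 YAC libraries, 46.8 and 9.03 in the integrated synHPRT1 libraries, 24.8 and 65.2 in the synHPRT1R YAC libraries, and 58.7 and 41.1 in the integrated synHPRT1R libraries. Replicates of a group differed as much as groups did. RPS14A had a median of 38.1 (16.9 to 44.3), RPL13A of 19.7 (4.07 to 39.8) and RPS14B of 18.6 (8.86 to 31.7). Over the 27 genes with a last-exon peak in at least 6 libraries the median level was 15.8, down to 3.02 for RPL27B.

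Short first exons went with these peaks. A last-exon peak in at least 6 libraries was listed for 23 of 34 genes with a first exon of at most 10 bp, 3 of 25 with 11 to 30 bp and 1 of 29 with more than 30 bp. The actin gene ACT1, outside the set, has a first exon of 10 bp and had no start peak in any library and a last-exon peak in 5. The single-copy genes RPL25, RPL30 and RPL39 had a last-exon peak in 0, 1 and 0 libraries, and RPS13 in 5. RPL30 encodes a protein that in yeast binds its own transcript and blocks its splicing, and its start peak was listed in 2 libraries at levels of 1.63 and 1.76.

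Genes without an intron served as the comparison for peaks inside the gene. A peak overlapping the 200 bp that follow the first 100 bp of the gene was listed for 87.5% ± 2.72 of these. The share with a last-exon peak among genes with an intron was lower, with a difference of -50.6 ± 4.34 percentage points (SD over 8 libraries, exact sign-flip p = 0.00781). Peaks span at least 200 bp, and start peaks listed in all libraries began at a median of 41 bp upstream in genes without an intron. Such a start peak reaches into those 200 bp and is counted again, so this difference does not speak of separate peaks inside the gene. When only peaks with their summit inside those bases were counted the direction turned. The shares were then 35.4% ± 5.17 on the last exon and 10.8% ± 3.38 in genes without an intron, a difference of 24.6 ± 5.86 percentage points (exact sign-flip p = 0.00781). Bowtie2, which places a read without opening a gap for an intron, is named in the submitters' processing notes, with its role not given in the sources used here. Its part in the missing start peaks and in the last-exon peaks was not tested.

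The upstream DNA of the genes annotated without an intron was searched for the letters of an intron, a search chosen after the data were seen. The order was GTATGT, then 30 to 600 bases, TACTAAC, 5 to 60 bases and CAG or TAG, on the gene's strand within 700 bp upstream. It was found for 10 of the 44 genes (22.7%), among them RPL24A, RPL24B, RPL32, RPS25A, RPS26A, RPS26B, RPS29A and RPS29B, against 0.646% of all genes without an intron. Their start peaks began at a median of 21.5 bp before the start codon (7 to 31.5 bp, 9 genes), and those of the genes without this order at 47 bp (21 to 357 bp, 33 genes). The peak edge lay a median of 12 bp before the end of the order (2 to 19.5 bp), much as the last-exon peaks did before the exon. The median level was 27.0 in genes with the order and 195 in those without, but the ranges overlapped widely, from 1.80 to 3325 with it, RPS26A being the highest of the whole set, and from 3.02 to 2046 without it. A match of letters is a description and not a mapped intron.

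The letters ACCCNNACA, a core of Rap1 binding sites, were searched on both strands in the 500 bp upstream. They were found for 40.2% of ribosomal protein genes against 5.48% of all genes. The share was 48.9% among all those with an intron and 22.7% among all those without. It hardly changed with the start peak, at 49.1% with an intron and no start peak in any library. Without an intron and with a start peak in all libraries it was 21.6%. Absence of these letters says nothing about binding of the factor.

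YAC and integrated libraries were compared over all 8 libraries. YAC libraries held 47.0 ± 2.16 ribosomal protein genes with a start peak and integrated ones 50.25 ± 2.06 (SD, n = 4 each). The difference of -3.25 genes missed the threshold in an exact two-sided permutation test (p = 0.0857). The smallest p that 4 libraries against 4 allow is 0.0286. No ribosomal protein gene had a start peak in all 4 libraries of one kind and in none of the other, where 0.1% of all genes did in the YAC direction and 0.0833% in the integrated direction. With at least 3 against at most 1 library, RPL15B, RPL6B and RPS25B had more in integrated libraries, against 2.52% of all genes, and none had more in YAC libraries, against 2.25%.

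No gene passed Fisher's exact test with Benjamini-Hochberg adjustment over the 6002 genes in either comparison, and 11 genes (0.183%) had an unadjusted exact p under 0.05 in each. With 4 libraries against 4 no gene can have an exact Fisher p below 0.0286. Adjustment could then be passed only if a large share of all genes reached that p, so it cannot decide about a single gene. For the 39 ribosomal protein genes with a start peak in all libraries, levels were ranked among the 1239 such genes of all kinds. Their median rank was at percentile 93.7 ± 0.384 with the YAC and 93.9 ± 0.216 with the integrated DNA (SD over 4 libraries each). This difference of -0.18 was within the spread (exact permutation p = 0.571).

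The ranks of 4 of the 39 genes (10.3%), RPL29, RPL11A and RPS12 among them, were higher in all 4 integrated than in all 4 YAC libraries, where 4.92% of the 1239 genes did so. None was higher in all YAC libraries, where 5% of the genes were. RPL29, for a protein of the large subunit that yeast can do without, moved most, from a mean percentile of 29.3 in YAC to 52.0 in integrated libraries, and RPL11A, whose product binds the smallest ribosomal RNA, from 95.2 to 96.4. RPS12 moved from 97.4 to 98.1. The RPL29 peak, as said above, began before the start window in every library. None passed adjustment over the 1239 genes (exact permutation test, adjusted p = 0.288 for each). Here too it could be passed only if a large share of the genes reached the smallest p, so it does not decide about these genes.

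The synHPRT1R and synHPRT1 libraries were compared in the same way. A start peak was listed for 50.0 ± 2.16 ribosomal protein genes in synHPRT1R and 47.25 ± 2.50 in synHPRT1 libraries (SD, n = 4 each), a difference of 2.75 genes (exact permutation p = 0.229). RPS10A was the gene of the set with a start peak in all 4 synHPRT1R libraries and in no synHPRT1 library, where 0.117% of all genes did so and 0.0666% in the other direction. Its levels were 1.63 and 2.46 in the YAC and 2.12 and 3.95 in the integrated synHPRT1R libraries, near the weakest that were listed, and its peak began 81 to 91 bp inside the gene, behind the first exon of 52 bp, in 3 of them and 60 bp upstream of the start codon in the synHPRT1R YAC library 2. The call was lost with a window of 200 bp upstream to 50 bp downstream, with an overlap of at least 50 bp and with the summit in the window, which each left a start peak in 1 library, and at a −log10 q of at least 10, which left 3. With the window of 500 bp upstream to 200 bp downstream 5 libraries had one. Its exact Fisher p of 0.0286 became 1 on adjustment, which, as said above, cannot decide about a single gene. With at least 3 against at most 1 library, RPS10A and RPS25A had more in synHPRT1R libraries, against 2.47% of all genes, and RPS25B had more in synHPRT1 libraries, against 1.48%.

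Ranks of the 39 genes differed by 0.27 between synHPRT1R and synHPRT1 libraries (93.9 ± 0.256 and 93.6 ± 0.320, SD, n = 4 each, exact permutation p = 0.314). Ranked by the deposited fold instead, the difference was 1.32 (exact permutation p = 0.0286). No member's ranks were separated in either direction, where 1.05% of the genes were in each. Of the ribosomal protein genes with a start peak in either of 2 libraries, 78.2% to 83.9% had one in both when the libraries were replicates of a group, and 70.9% to 83.3% when they came from different groups.

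Genes that work with the ribosomal proteins were described from a fixed list. Of 7 genes for the stalk and associated proteins outside the symbol rule, 6 had a start peak in all 8 libraries, with median levels of 187 for RPP0, 755 for RPP1A, 516 for RPP2A, 189 for RPP2B, 554 for STM1 and 51.8 for ASC1. ASC1, for a signalling scaffold on the small subunit, has an intron behind a first exon of 537 bp. The seventh, RPP1B, has an intron behind a first exon of 114 bp and had no start peak in any library.

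Of 10 regulators of ribosomal protein genes, HMO1, for a DNA-bending protein, and TOR1, for a nutrient-sensing kinase, had a start peak in all libraries, with median levels of 43.5 and 7.90. SCH9 had one in 3 libraries, RAP1 and ABF1 in 1 each, and IFH1, FHL1, SFP1, CRF1 and TBF1 in none. Among 11 chaperones and assembly factors, SSZ1 (47.3), ZUO1 (40.8), LOC1 (19.01), SQT1 (11.6) and RRB1 (9.02) had one in all libraries, 4 in some and SYO1 and BCP1 in none. SSZ1 and ZUO1 encode chaperones that sit at the peptide exit.

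Peaks on the opposite strand inside the gene were rare. They were listed for 0% to 1.52% of ribosomal protein genes in a library and 3.99% to 5.37% of other genes, and 127 of the 132 had none in any library, as did 4831 of the 5870 other genes. The genes were not matched for length, and a longer gene has more room for such a peak. The shares therefore do not show a trait of ribosomal protein genes.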

How the data were processed

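Per the submitters' processing notes, the tools were MACS2 2.1.0, Bowtie2 2.2.9, deepTools 3.5.0, bcl2fastq 2.20 and SAMtools 1.9, and the build sacCer3, with roles not given in the sources used here. For each library, strand and reference the authors deposited 1 peak list, 32 in all, with no pooling. The 16 lists made with the synthetic sequence as a contig of its own were used here, and the others as an alternative. Each peak has a deposited fold enrichment (the ratio of its summit to its background) with deposited −log10 p and −log10 q values. They belong to the authors' peaks, and here they rank or filter peaks of the same list and nothing else. The fold never exceeded 49.99, which flattens the strongest peaks.

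Pileup at the summit was solved from the fold and the −log10 p with a Poisson model, with whole numbers (within 0.1) for 97.7% to 99.5% of peaks. Genome-wide background ran from 41.0 to 94.8 tags at a position, 41.0 to 52.7 for the plus and 67.0 to 94.8 for the minus strand, so levels of genes on different strands rest on different backgrounds. Depth as a read count is unknown. No molecular identifiers are mentioned in the labels, which give 5 µg of RNA and 20 PCR cycles.

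Genes, exons and sequences came from the RefSeq annotation and genome R64, the assembly of sacCer3. Forward lists were taken as the plus strand. Peaks were counted per library, with libraries as replicates. Shares were compared by exact two-sided sign-flip tests over 8 libraries, and groups by exact permutation tests of 70 arrangements, Fisher's exact test and Benjamini-Hochberg adjustment over all genes (Python 3.11.15, numpy 2.4.6, pandas 2.3.3, scipy 1.17.1, biopython 1.88, matplotlib 3.10.9). The functions were tested on simulated data. The members, gene lists, tests and naming rule were chosen with earlier results of these data known. The rule names pairs differing in at least 6 libraries, the 10 highest by median percentile of fold, exceptions to the intron split, up to 4 members per direction of each comparison, the associated genes and 14 single-copy members. Members named for their levels, pair ratios, last-exon peaks or ranks were chosen after their values were seen. Values of some members are not reported here. Alternatives changed the window, the minimum overlap, the q threshold and the reference, took summits in place of peaks, equalised list lengths, dropped shared windows or repeated sequence, blocked on replicate, or dropped 1 library.

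Same-numbered replicates did not deviate together (correlations between -0.0229 and 0.0214 over groups), so the numbers were not taken as pairs.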

Additional observations from a re-analysis of the deposited data

Results flagged for a closer look

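In sets of 4 to 8 libraries, 4 of 132 sets of values (14 measures and the levels of 30 members) held a library far from the others by Dixon's test, where chance alone gives about 1 in 20. The integrated synHPRT1R library 1 had the highest share of intron-containing ribosomal protein genes with a last-exon peak, 47.7% against 30.7% in the lowest library, and it also stood apart when summits were counted, at 46.6%. Among the integrated libraries its share of genes without an intron with a peak in the 200 bp behind the first 100 bp was also flagged. That share was 90.9%, against 88.6% in each of the other integrated libraries. Because the others were equal, Dixon's test would flag any difference from them, so this flag does not show a marked departure. Leaving out each library in turn moved the difference between these shares only from -51.6 to -49.5 percentage points. The level of RPL9B was 68.9 in the synHPRT1R YAC library 1, against 39.8 to 42.7 in the other YAC libraries. These values were not tested for a cause.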

How the results depend on the processing

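Of 244 alternatives for 15 results, 223 kept the direction and the side of the threshold. For the counts of genes called by presence alone, which have neither direction nor p, a count close to the main count was taken as kept. The intron difference ran from -81.8 to -72.9 percentage points over its alternatives other than leaving out a library, and from -80.8 to -79.5 without each library. The paralog difference was -3.51 (p = 0.0625, exact sign-flip test) with the window of 500 bp upstream and 200 bp downstream. The exon comparison turned to 24.6 by summits. Counting genes by the summit in the window, synHPRT1R minus synHPRT1 became -0.5 genes (exact permutation p = 0.829). Large minus small subunit became -0.282 with the reference that holds the insert in chromosome XI (exact p = 0.828) and -0.656 without windows shared with a neighbour (exact p = 0.641). The rank difference of synHPRT1R and synHPRT1 by deposited fold was 1.32 (exact p = 0.0286). The cause of these changes was not tested.

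Genes in all libraries of one kind and none of the other numbered 11 in each comparison. Without 1 library, which makes that rule easier to meet, they numbered 20 to 33 for YAC against integrated and 13 to 35 for synHPRT1R against synHPRT1. With a replicate block the differences in members were -3.25 and 2.75 (exact sign-flip p = 0.125 in both, the smallest p that 4 pairs allow), and no call changed. Of 342 values of 57 named members, 306 were equal and 36 moved. The unknown read depth limits every absence of a peak.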
